A study of Mus musculus with 147 samples.

Results

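The genes of the core BMP pathway described here in the mouse male germ line were 9 of the 31053 genes in the deposited count table of unique molecular identifiers (UMIs, which count RNA molecules rather than amplified copies). They were taken by name and not by a cut on measured values, though with earlier results of these data known. They are the ligand genes *Bmp2*, *Bmp4* and *Bmp8b*, the receptor genes *Bmpr1a*, *Bmpr1b* and *Bmpr2*, and the Smad genes *Smad1*, *Smad5* and *Smad4*. The cells came from the offspring of C57BL/6 females and males homozygous for the BVSC reporters, a Blimp1-mVenus and a Stella-ECFP transgene that mark germ cells through the *Prdm1* and *Dppa3* genes. All groups were wild type apart from these reporters, and 9034 of their cells passed the cell filter.

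At E6.5 and E7.5 cells were taken from the early embryo under the labels EPIrandom and FACSrandom, and no gate on the reporters is stated for them. From E8.5 to E18.5 they were sorted into a BVSC-positive gate (the positive gate) and, from E11.5, a reporter-negative gate (the negative gate) of the same embryos or gonads, and from E14.5 the positive cells were gated on Stella-ECFP alone. After birth, from PND0 to PND14, cells with germ cell morphology were picked at random from the testis with or without a gate on DNA content, and they are divided here into germ-marker and somatic-marker cells by their mean level over lists of marker genes. Embryos were chosen as male by *Sry* PCR at E10.5 and E11.5, and the study's methods describe no sexing of earlier embryos. All UMIs of the cells of 1 time-point, biological replicate and gate were summed into 1 unit and scaled to CPM, the UMIs of a gene per 1000000 UMIs of the unit, which gave 76 units at 25 time-points, with 22 to 469 cells and 2457656 to 146125943 UMIs each. For the tests at E6.5 and E7.5, cells picked by either of the labelled ways (EPIrandom and FACSrandom) were summed per replicate. The 96 cell barcodes were shared by the libraries, and no cell had the same counts as another.

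Bone morphogenetic proteins are secreted ligands of the TGF-β superfamily. They bind a complex of type I receptors (such as BMPR1A and BMPR1B) and type II receptors (such as BMPR2), the type I receptor phosphorylates SMAD1 and SMAD5, and these enter the nucleus with the common partner SMAD4 and switch on targets such as the *Id* genes. In the mouse embryo, BMP4 and BMP8B from the extraembryonic ectoderm and BMP2 from the visceral endoderm are known for inducing primordial germ cells from the epiblast, and BMP signals also act on spermatogonia in the postnatal testis.

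*Bmp8b* and *Bmpr1b* were the members whose level changed most within the positive gate, and *Bmp4* is the ligand best known for inducing germ cells, so the start regions of these 3 genes are shown. Each is 300 bases, 250 before and 50 after a RefSeq transcript start (RefSeq, GRCm38.p6), read 5′ to 3′ on the strand of the gene, with CG dinucleotides in capitals. *Bmp8b* is taken from chr4:123104911-123105210 on the + strand, *Bmpr1b* from the most upstream of its windows in the table at chr3:141982215-141982514 on the − strand, and *Bmp4* from chr14:46390620-46390919 on the − strand.

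Bmp8b: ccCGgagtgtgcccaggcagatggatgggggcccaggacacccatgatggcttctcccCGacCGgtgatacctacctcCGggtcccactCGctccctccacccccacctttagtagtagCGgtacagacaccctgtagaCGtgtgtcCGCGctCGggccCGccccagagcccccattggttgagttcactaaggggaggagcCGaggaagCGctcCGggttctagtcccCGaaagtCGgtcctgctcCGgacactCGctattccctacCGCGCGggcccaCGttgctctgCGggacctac
Bmpr1b: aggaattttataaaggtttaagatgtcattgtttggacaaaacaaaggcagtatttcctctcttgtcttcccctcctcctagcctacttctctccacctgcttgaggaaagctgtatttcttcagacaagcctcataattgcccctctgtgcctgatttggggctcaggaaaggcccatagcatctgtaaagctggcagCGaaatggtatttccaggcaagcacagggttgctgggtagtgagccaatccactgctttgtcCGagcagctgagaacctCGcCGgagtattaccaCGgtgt
Bmp4: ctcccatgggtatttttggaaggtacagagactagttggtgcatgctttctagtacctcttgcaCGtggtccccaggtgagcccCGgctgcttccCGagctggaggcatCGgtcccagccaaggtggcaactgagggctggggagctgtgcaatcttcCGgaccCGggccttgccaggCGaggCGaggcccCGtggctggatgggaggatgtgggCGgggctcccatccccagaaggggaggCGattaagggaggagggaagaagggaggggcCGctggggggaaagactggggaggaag

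The *Bmp8b* window held 23 CG dinucleotides, a number reached by 21.5% of the 32851 windows of this length in the table. *Bmp4* held 12, reached by 39.6% of windows, and this *Bmpr1b* window held 5, reached by 62%, against a median of 7 (CG reads the same on both strands). The annotated span of *Bmpr1b* given next reaches further upstream than its windows, so this one need not hold the start used in these cells. A window was found for 7 of the 9 members, with none for *Bmp2* and *Smad4*.

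In mm10 with GENCODE M21, *Bmp2* spans chr2:133552159-133562885 (+ strand), *Bmp4* chr14:46383520-46390669 (−) and *Bmp8b* chr4:123105165-123132099 (+). *Bmpr1a* spans chr14:34410734-34503341 (−), *Bmpr1b* chr3:141837136-142169425 (−), *Bmpr2* chr1:59763400-59879014 (+), *Smad1* chr8:79338395-79399518 (−) and *Smad5* chr13:56703010-56742377 (+). *Bmp8b* is measured with less certainty, because exons of *Ppie* overlap its exons on the other strand and its near-identical paralog *Bmp8a* lies close by on the same chromosome (chr4:123312645-123343252, −). Exons of *Bmp4* and *Bmpr1a* are also overlapped on the other strand, by *Gm15217* (0 to 1.14 CPM in the positive gate) and *Gm17110* (0.124 to 17 CPM). Those of *Smad5* are overlapped on the same strand by *Gm27301*, which is not among the counted genes. Whether the counting used strand is not given in the sources used here. *Ppie* stood at 29.2 to 185 CPM in the positive gate and 53.9 to 135.1 CPM in the negative gate, and *Bmp8a* at 0 to 8.93 CPM and 0 to 5.15 CPM.

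Some units stood apart from their labels. In the positive gate at E8.5, replicate 1 held 21 CPM of the germ cell gene *Dppa3* and 1549 CPM of the visceral endoderm gene *Ttr*, and replicate 3 held 1043 CPM of *Ttr*. At E7.5, 93 of 95 cells of replicate 3 were led by the visceral endoderm markers. In the positive gate, E17.5 replicate 1 held 687 CPM of summed Sertoli cell markers, the most of that gate, and E18.5 replicate 2 held 977 CPM of summed Leydig cell markers, against 1.71 to 1224 CPM in the negative units of E17.5 and E18.5. Over E11.5 to E18.5, 96.5% of cells of the positive gate were germ-marker cells and 97% of cells of the negative gate were somatic-marker cells. After birth 84.4% of the picked cells were germ-marker cells and 14.3% somatic-marker cells, while 1.32% fell too near the border and were left out.

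**Figure D1:**
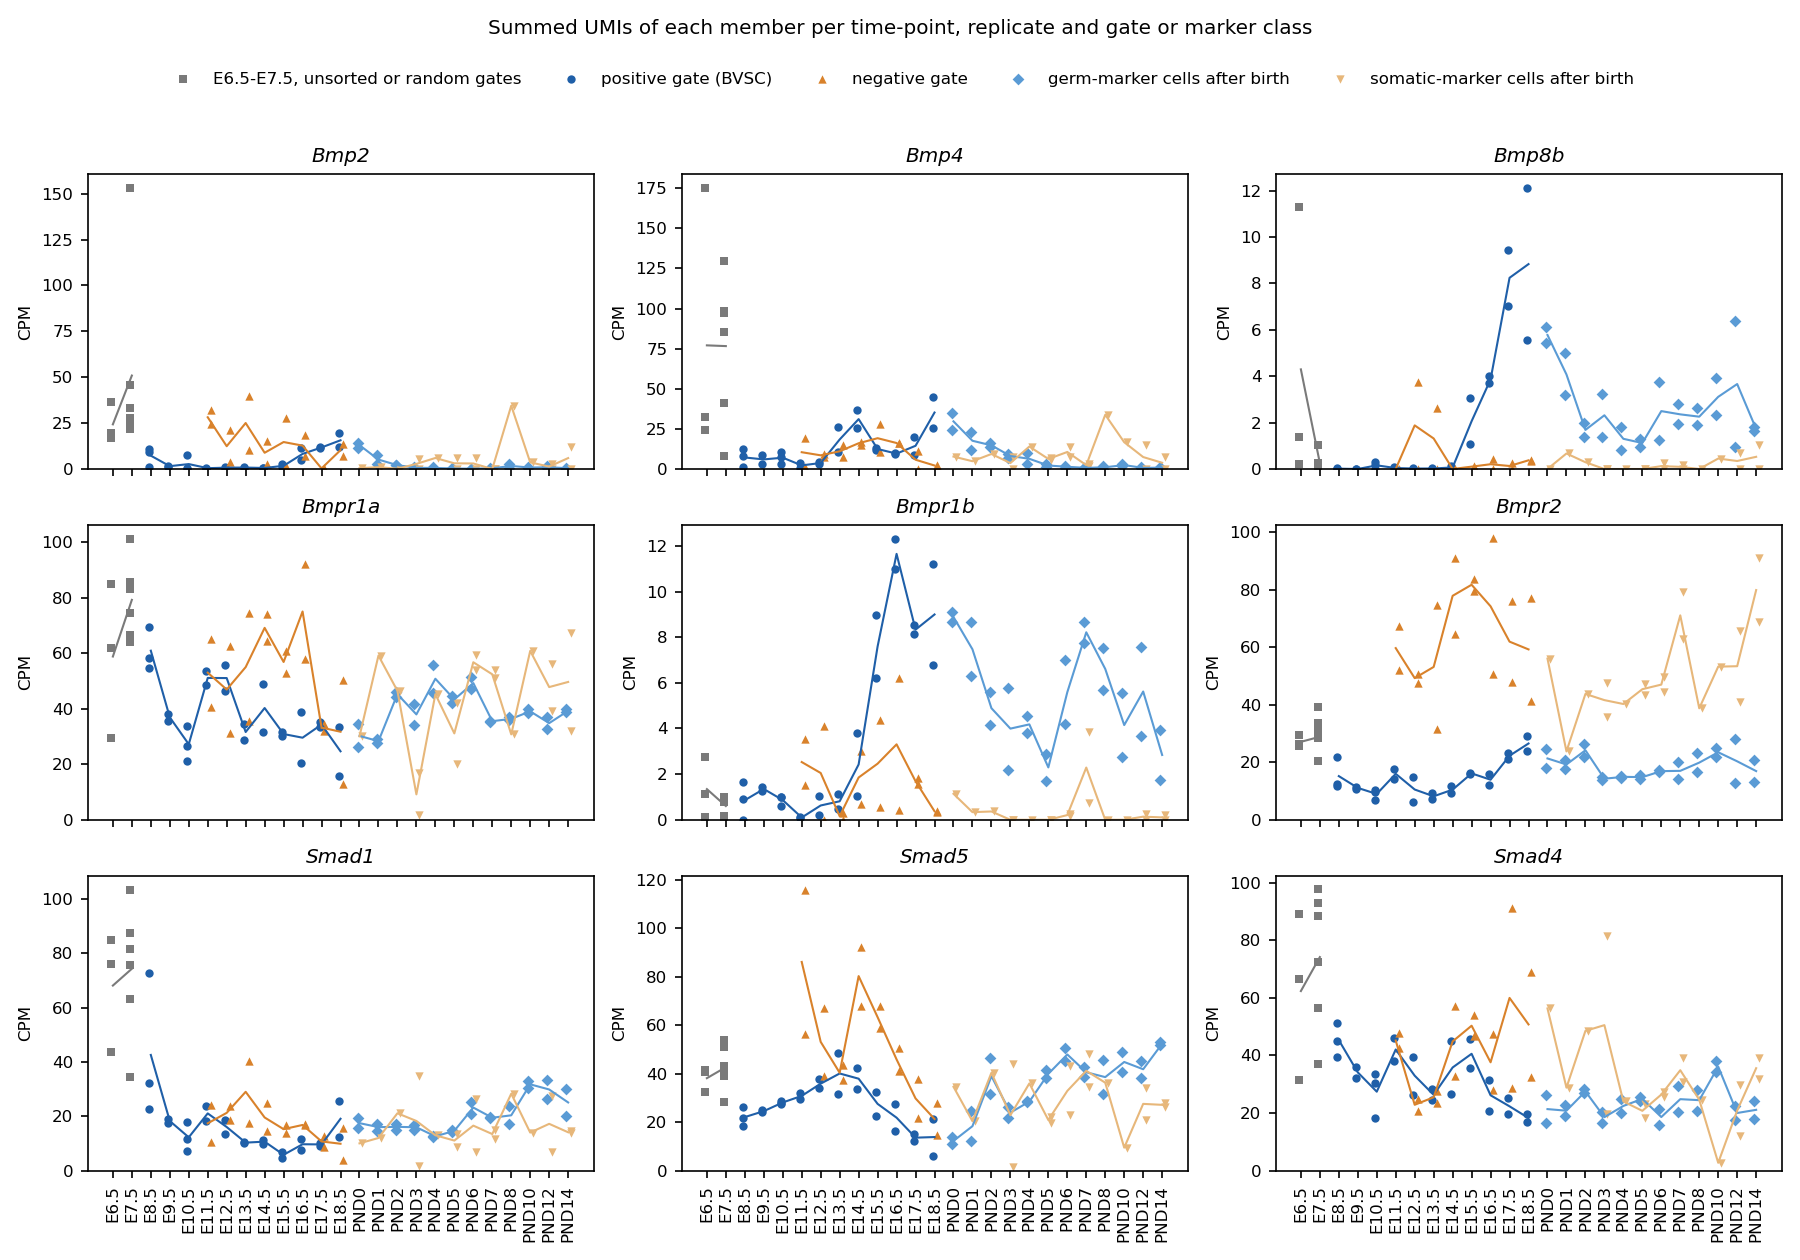
Level of each of the 9 genes (CPM, y axis) against time-point (x axis), 1 panel a gene. Points are units, lines join the means of the units of a group at each time-point, and grey squares are the units of E6.5 and E7.5. At some postnatal days the somatic-marker mean is that of only 1 unit. *Bmp8b* stayed at or below 0.311 CPM in the positive gate until E14.5 and reached 12.1 CPM at E18.5, and the *Bmpr2* means lay lower in germ cells than in somatic cells.

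Levels in the positive and the negative gate from E11.5 to E18.5 were compared over 16 units each, with the time-point as a covariate. Of the 9 members, 6 passed the test (edgeR quasi-likelihood, adjusted p under 0.05), all of them lower in the positive gate: *Bmp2*, *Bmpr1a*, *Bmpr2*, *Smad1*, *Smad5* and *Smad4*. The share of all 21368 genes tested that passed was 60.3%, so 6 of 9 was near the background, while the direction was not that of all genes, 60.5% of whose calls were higher. The median log2 difference was −0.67 over the members and 0.38 over all genes. With the replicate as a block 5 members passed, of which *Bmp8b* was higher and *Bmp2*, *Bmpr1a*, *Bmpr2* and *Smad5* lower. Because each unit is a sum over cells, fewer cells of a type and less RNA per cell cannot be told apart in these values.

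The summed germ cell markers ran from 743 to 2979 CPM in the positive gate (median 2036) and from 41.5 to 422 CPM in the negative gate (median 92.5). Sertoli cell markers summed to 18.6 to 687 CPM against 353 to 2619 CPM, and interstitial markers to 1.30 to 333 CPM against 269 to 4071 CPM. All 6 germ cell markers were called higher and all 6 Sertoli and all 6 interstitial markers lower in the positive gate, and none of these was at 0 in every unit of a gate. The part of these other cells in the member values was tested only by keeping the cells of each gate's own marker class, and then again 6 members passed.

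Within the positive gate, 0 of 9 members passed between E8.5–E10.5 and E11.5–E13.5 (8 and 6 units), where 11.8% of 21559 genes did. At an unadjusted p under 0.05 there were 2 members by edgeR, *Bmp2* and *Smad5*, and after adjustment DESeq2 called 1 (*Bmp2*) and limma 0. From E11.5–E13.5 to E14.5–E16.5 (6 and 6 units), 3 members passed, *Bmp8b* and *Bmpr1b* higher and *Smad1* lower, against 43.5% of all genes. The positive gate changed to Stella-ECFP alone at E14.5, so gate and time cannot be told apart in the value fitted for this step, for any gene. All days from E14.5 on shared the new gate, and the levels of each day are given below for *Bmp8b* and *Bmpr1b*. The part of the gate change was not tested. From E14.5–E16.5 to E17.5–E18.5 (6 and 4 units), *Smad5* and *Smad4* fell and no other member passed, against 13.4% of all genes. The median log2 change over all genes in these 3 steps was −0.02, 0.53 and 0.15.

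In the negative gate none of the 8 members tested passed in either later step by edgeR. Of all 14555 genes tested, 0.0137% passed from E11.5–E13.5 to E14.5–E16.5 and 0.0824% from E14.5–E16.5 to E17.5–E18.5. At an unadjusted p under 0.05 there were 0 and 3 members, and DESeq2 and limma called 0. *Bmp8b* was under the filter on low counts there.

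Among postnatal cells, germ-marker and somatic-marker cells were compared over 24 and 18 units with the time-point as a covariate. Here 7 of 9 members passed, *Bmpr1b* and *Bmp8b* higher and *Bmp2*, *Bmp4*, *Bmpr1a*, *Bmpr2* and *Smad4* lower in germ-marker cells, against 64.5% of 23311 genes, so that this share too was near the background. The median log2 difference was −0.47 over the members and 0.53 over all genes. With the replicate as a block, only *Bmpr1b*, *Bmp8b* and *Bmpr2* passed. Within the germ-marker cells, 4 of 9 members passed from PND0–PND2 to PND3–PND5 (*Bmp2* and *Bmp4* lower, *Bmpr1a* and *Smad5* higher), against 39% of 21315 genes. From PND3–PND5 to PND6–PND8, 1 of 9 passed (*Bmp4*, lower) against 4.42%, and from PND6–PND8 to PND10–PND14, 1 of 9 (*Smad1*, higher) against 13.8%.

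**Figure D2:**
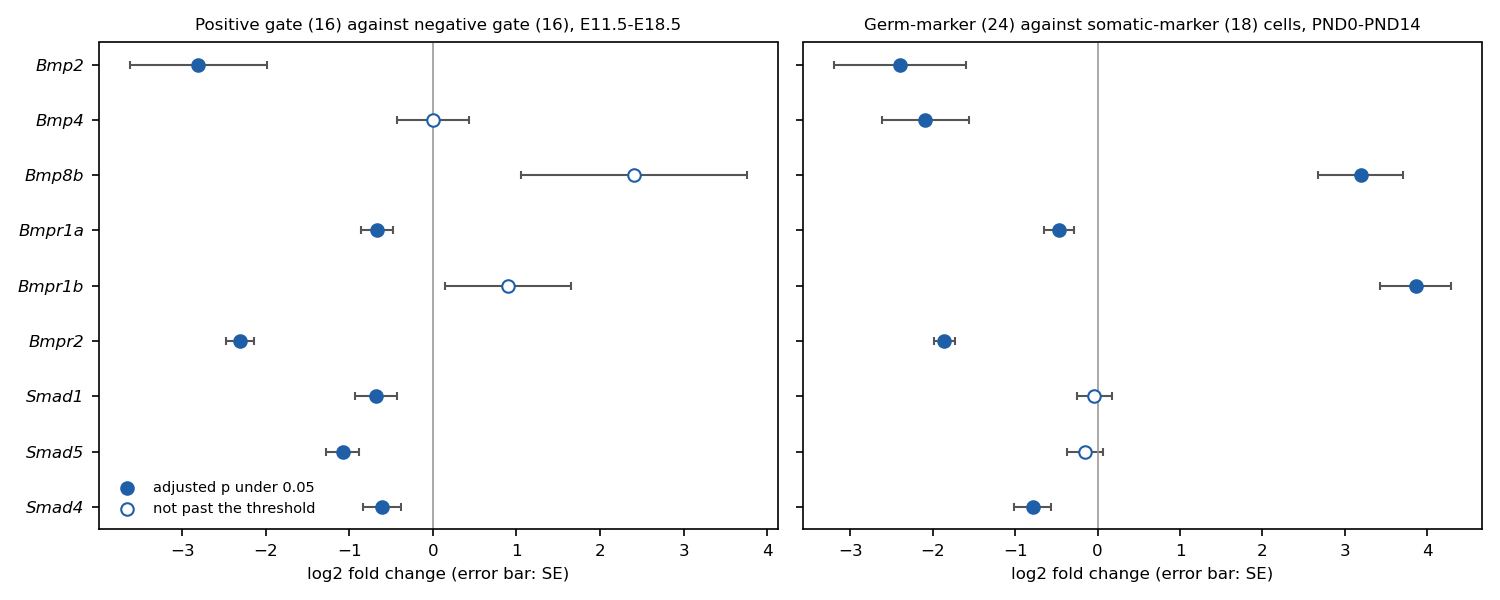
Log2 difference ± SE (x axis) of each gene, positive against negative gate at E11.5–E18.5 (16 and 16 units) and germ-marker against somatic-marker cells at PND0–PND14 (24 and 18 units). Filled symbols passed an adjusted p of 0.05. *Bmpr2* was lower in both (−2.31 and −1.86), and *Bmpr1b* and *Bmp8b* lay furthest to the right after birth (3.86 and 3.19).

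The ligand *Bmp2* is a gene of the visceral endoderm before gastrulation. Among the early units, *Bmp2* stood at 16.8, 19.8 and 36.4 CPM in the 3 replicates of E6.5 and between 21.8 and 153 CPM at E7.5. The unit at 153 CPM was replicate 3, labelled FACSrandom and almost wholly of visceral-endoderm-led cells. In the positive gate at E8.5 *Bmp2* stood at 9.51, 1.30 and 11 CPM, the lowest in replicate 2, whose *Ttr* was 99.2 CPM. None of these steps passed.

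*Bmp2* reached 0.0808 to 1.35 CPM (median 0.622) in the positive gate at E11.5–E13.5, against 0.211 to 11 CPM (median 1.59) at E8.5–E10.5. The difference was −2.49 ± 0.89 on the log2 scale (adjusted p = 0.0659, edgeR) and −1.74 without the E8.5 units (adjusted p = 0.247). The ranges overlapped, and the high end of the earlier phase was set by 2 E8.5 units that also held the most *Ttr*.

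Later *Bmp2* stood higher in the positive gate: 5.16 and 11.3 CPM at E16.5, 11.6 and 11.9 CPM at E17.5, and 11.9 and 19.4 CPM at E18.5. Every E17.5–E18.5 unit lay above every E14.5–E16.5 unit (0.498 to 11.3 CPM), yet the step was not called by edgeR, while limma called it (2.02, adjusted p = 0.0108). Endothelial, Sertoli and interstitial markers moved in the same units: the Sertoli sum ran from 137.4 to 687 CPM at E17.5–E18.5 against 33 to 199.7 CPM before, the interstitial sum from 129.2 to 333 CPM against 4.61 to 99 CPM, and the endothelial sum from 97.2 to 199 CPM against 1.15 to 63.7 CPM. Most of the endothelial sum was *Tie1*, at 77.7, 143.4, 158 and 162 CPM in the positive units of E17.5–E18.5 and 4.78 to 14 CPM in the negative units of the same days, so that this sum read a gene higher in the germ cell gate, while *Cdh5* was at 5.27 to 5.89 CPM in these positive units. All 4 endothelial, 6 Sertoli and 6 interstitial markers had higher means in the later units, of which 1 interstitial marker was called. All 5 blood markers (2 called) and all 5 Leydig cell markers (0 called) also had higher means, and 0 of 3 macrophage markers did. The blood sum ran from 224 to 395 CPM against 18.4 to 154 CPM before. The part of these lists in the *Bmp2* level was not tested beyond the fit on germ-marker cells. Without replicate 2 of E18.5 the edgeR value was 1.61 (adjusted p = 0.394).

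In the negative gate *Bmp2* ranged from 0.260 to 39.6 CPM (median 12), with 31.9 and 24.5 CPM at E11.5, 10.51 and 39.6 CPM at E13.5, 0.260 and 0.390 CPM at E17.5, and 7.17 and 13.4 CPM at E18.5. Positive units of the same days ranged from 0.0808 to 19.4 CPM (median 1.24). The highest positive units were thus those of E16.5 to E18.5, while in the negative gate the E17.5 units were the lowest and no step passed. Over all time-points *Bmp2* was lower in the positive gate by −2.81 ± 0.82 on the log2 scale (adjusted p = 0.00431), and the call was lost without replicate 1 (−2.87, adjusted p = 0.0528) and without replicate 2 (−1.68, adjusted p = 0.312). The change of this difference between E11.5–E13.5 and E14.5–E16.5 was 2.92 and did not pass (adjusted p = 0.09).

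After birth *Bmp2* fell in germ-marker cells. It stood at 14.4 and 11.6 CPM at PND0, 2.67 and 7.57 CPM at PND1, 1.99 and 2.18 CPM at PND2, and 0.0627 and 1.23 CPM at PND3. From PND0–PND2 (1.99 to 14.4 CPM, median 5.12) to PND3–PND5 (0.0627 to 1.23 CPM, median 0.286) the ranges did not overlap, and the fall was −3.42 ± 0.81 (adjusted p = 0.00230). Without replicate 1 it was −2.76 (adjusted p = 0.118), a setting under which 0 of 22295 genes passed by edgeR. The endothelial sum was lower in the later units, at 5.13–29.9 CPM after 35.9–189.6 CPM, with lower means for all 4 markers and 2 of them called. It too was mostly *Tie1*, at 167 CPM in germ-led cells of PND0 replicate 2 beside 7.19 CPM of *Cdh5*, and its part in this step was not tested.

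Somatic-marker cells varied more: *Bmp2* ran from 0 to 34.5 CPM (median 0.730) there and from 0.0627 to 14.4 CPM (median 0.752) in germ-marker cells. The fitted difference was −2.40 ± 0.80 (adjusted p = 0.00896), but it depended on replicate 2: without replicate 2 it was 0.09 (adjusted p = 0.957), without replicate 1 −1.91 (adjusted p = 0.173), and with the replicate as a block −1.01 (adjusted p = 0.339). Within the postnatal somatic cells, *Bmp2* ran from 0 to 58.2 CPM in interstitial-led cells (13.8 ± 18.1 CPM, SD, n = 10 units) and from 0 to 0.705 CPM in Sertoli-led cells (0.147 ± 0.271 CPM, SD, n = 11 units). The ranges overlapped, and the higher interstitial values came from few cells: at 58.2 CPM, in PND14 replicate 1, 15.8% of 19 cells held all 169 UMIs. In the fetal negative gate, Sertoli-led cells held 9.27 ± 14.8 CPM (SD, n = 9) and interstitial-led cells 5.63 ± 3.51 CPM (SD, n = 13), a difference smaller than the spread.

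*Bmp4* encodes a ligand that the extraembryonic ectoderm secretes before gastrulation. At E6.5 it stood at 32.2, 175 and 24 CPM, at E7.5 between 8.15 and 129.5 CPM, and in the positive gate at E8.5 at 1.26, 12.45 and 7.83 CPM. The replicates differed more than the time-points. From E7.5 to E8.5 the fitted change was −3.14, which edgeR did not call and DESeq2 did (−3.11, adjusted p = 0.0159).

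*Bmp4* was present in every unit of the positive gate from E8.5 on. It stood at 26.4 and 10.4 CPM at E13.5, 25.4 and 36.8 CPM at E14.5, 12.9 and 12 CPM at E15.5, 9.29 and 9.87 CPM at E16.5, 8.75 and 20.2 CPM at E17.5, and 25.4 and 45 CPM at E18.5. No steady course showed: the level was high at E14.5, lower at E15.5 and E16.5 and high again at E18.5. *Bmp4* did not pass between the gates, with 0.929 to 45 CPM (median 11.2) in the positive and 0.260 to 27.8 CPM (median 11) in the negative gate (−0.00 ± 0.43, adjusted p = 0.996). Cells with at least 1 *Bmp4* UMI were 25% of the positive gate and 11.2% of the negative gate (medians over 16 units) after each cell was thinned to 50000 UMIs, and 38.8% and 16.9% without thinning, where the median UMIs of a cell were 223436 to 382885 and 89004 to 246818.

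*Bmp4* then fell through the first week after birth in germ-marker cells. The 2 replicates stood at 34.9 and 24.5 CPM at PND0, 11.9 and 23.3 CPM at PND1, 15.9 and 13.6 CPM at PND2, 6.88 and 9.35 CPM at PND3, 2.83 and 9.86 CPM at PND4, and 1.46 and 2.88 CPM at PND5. The PND3–PND5 units (1.46 to 9.86 CPM) lay below all PND0–PND2 units (11.9 to 34.9 CPM), a change of −1.54 ± 0.51 (adjusted p = 0.0206), and without replicate 1 of −1.16 (adjusted p = 0.252). A second fall followed, to 0.206 to 2.02 CPM (median 0.780) at PND6–PND8, by −2.39 ± 0.53 (adjusted p = 0.0129). This second call was lost without replicate 1 (−2.22, adjusted p = 0.235) and without replicate 2 (−2.80, adjusted p = 0.116).

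In postnatal somatic-marker cells *Bmp4* ran from 0 to 33.8 CPM (median 7.47), against 0.206 to 34.9 CPM (median 2.42) in germ-marker cells (−2.09 ± 0.53, adjusted p = 7.39e-04). The block removed the call (−1.35, adjusted p = 0.0800), as did leaving out replicate 1 (−0.79, adjusted p = 0.379) or replicate 2 (−2.21, adjusted p = 0.0802). Interstitial-led cells stood higher, described without a test: 23 ± 12.8 CPM (SD, n = 10 units) after birth against 1.74 ± 2.54 CPM (SD, n = 11) in Sertoli-led cells, and 17.9 ± 11.46 CPM (SD, n = 13) against 3.81 ± 7.35 CPM (SD, n = 9) in the fetal negative gate. The highest somatic-marker unit, at 33.8 CPM, was replicate 1 of PND8, a unit of 16 cells that was also the highest for *Bmp2*.

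*Bmp8b*, the partner ligand of *Bmp4* in germ cell induction, was nearly absent from sorted germ cells until E14.5 and then rose. Positive units held 0 to 0.311 CPM through E14.5, then 3.04 and 1.08 CPM at E15.5, 4.0 and 3.72 CPM at E16.5, 7.04 and 9.44 CPM at E17.5, and 5.56 and 12.1 CPM at E18.5. After birth it stood at 5.43 and 6.12 CPM at PND0, 3.17 and 4.98 CPM at PND1, and 1.99 and 1.38 CPM at PND2. From E8.5 on, the 3 highest units, at 7.04, 9.44 and 12.1 CPM, were thus fetal, of E17.5 and E18.5.

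Over the 6 units of E11.5–E13.5 only 4 *Bmp8b* UMIs were counted, and 306 over the 6 units of E14.5–E16.5. The fitted change was 5.58 ± 1.44 on the log2 scale (adjusted p = 0.00438), a size that depends on the prior count since 3 of the 6 earlier units were at 0. In 9 of the 24 positive units *Bmp8b* was at 0, and 3 counts, the limit that a count of 0 allows, were worth 0.0851 to 0.145 CPM there (counting error only). In germ-marker cells alone the change was 5.57 (adjusted p = 0.00415). Without replicate 1 or replicate 2 the call was lost (5.24, adjusted p = 0.119, and 5.87, adjusted p = 0.112), in fits with fewer units and with sizes near 5.58.

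From E14.5–E16.5 (0 to 4.0 CPM) to E17.5–E18.5 (5.56 to 12.1 CPM) the *Bmp8b* ranges did not overlap, but edgeR gave 1.83 ± 1.25 (adjusted p = 0.363), and limma 1.94 (adjusted p = 2.38e-04). Against the negative gate, the 1146 *Bmp8b* UMIs of the positive gate (0 to 12.1 CPM, median 0.606) stood beside 60 UMIs (0 to 3.76 CPM, median 0.0455). That difference was 2.41 ± 1.35 (adjusted p = 0.123), and it passed with the replicate as a block (3.22 ± 1.20, adjusted p = 0.0307) and by limma (0.96, adjusted p = 0.00693). The highest negative units, 3.76 CPM at E12.5 and 2.63 CPM at E13.5, both came from replicate 2 and from days on which the positive gate held next to none. The gate difference changed between E11.5–E13.5 and E14.5–E16.5 by 8.90 ± 1.99 (adjusted p = 0.00431), and this rested on those 2 negative units: without both it was 1.65 ± 5.75 (adjusted p = 0.991). They held 13 and 39 *Bmp8b* UMIs, and 37 of the latter were in 9.09% of 11 Sertoli-led cells. Without replicate 1 the value was 8.65 (adjusted p = 0.145) and without replicate 2 it was 3.13 (adjusted p = 1), and all these sizes depend on the prior count.

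The share of cells with a *Bmp8b* UMI was 3.33% in the positive gate and 0 in the negative gate at 50000 UMIs a cell, and 4.23% and 1.06% without thinning (medians over 16 units). After birth, germ-marker cells held 0.802 to 6.39 CPM (median 1.96) and somatic-marker cells 0 to 1.05 CPM (median 0). The difference was 3.19 ± 0.51 (adjusted p = 1.09e-06), and with the block 3.71. In 11 of 18 somatic-marker units *Bmp8b* was at 0, where 3 counts were worth 0.210 to 4.88 CPM, so that low levels were not detectable in the smallest of them.

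**Figure D3:**
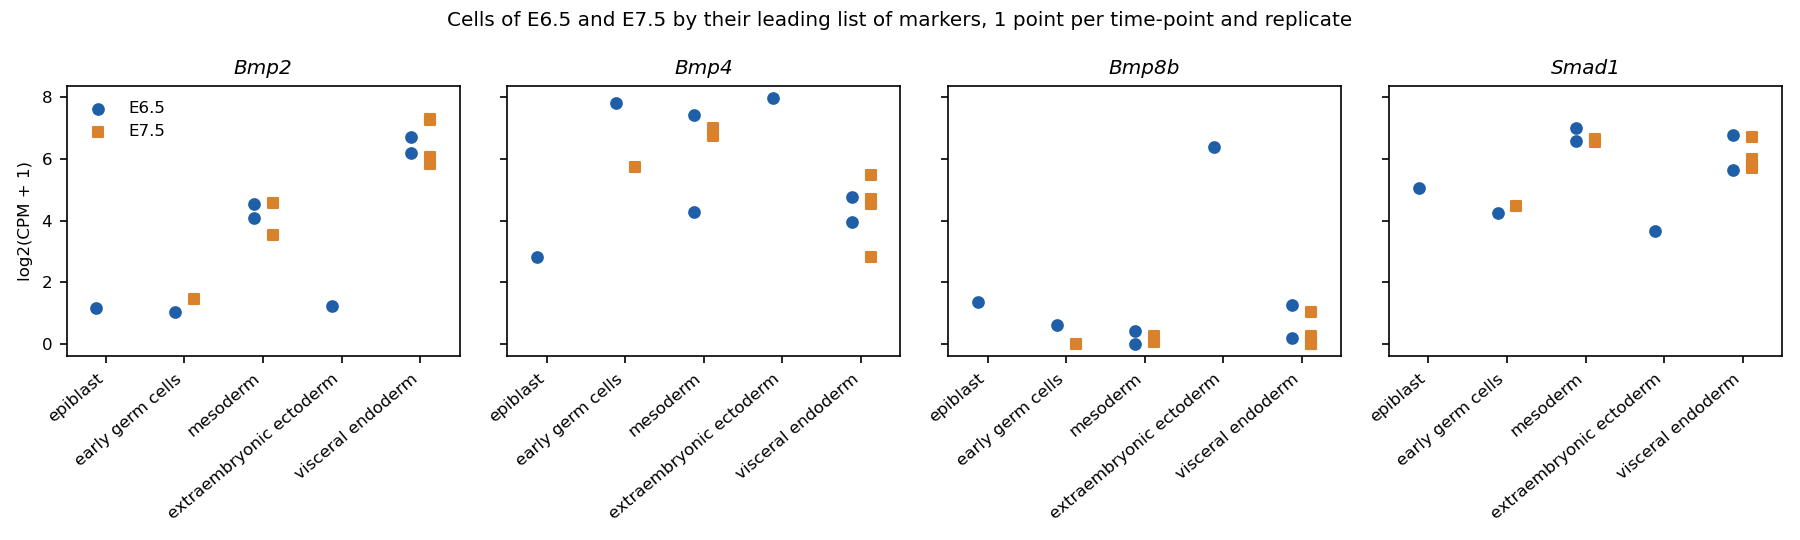
Levels of *Bmp2*, *Bmp4*, *Bmp8b* and *Smad1* (log2(CPM + 1), y axis) in cells of E6.5 and E7.5, summed by replicate and by the marker list that led in each cell (x axis). Each point is 1 replicate at 1 time-point; *Bmp2* was highest in visceral-endoderm-led cells and *Bmp8b* in the extraembryonic-ectoderm-led cells of E6.5 replicate 1.

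In the early embryo the ligands fell on different cells. This division by leading marker list was made after the data were seen, and it is a description without a test. Extraembryonic-ectoderm-led cells (38 cells of E6.5 replicate 1, with the defining marker *Elf5* at 388 CPM) held *Bmp4* at 249 CPM and *Bmp8b* at 82.1 CPM, the highest *Bmp8b* level of any cells described here. A *Bmp8b* UMI was found in 94.7% of them, and in 78.9% after thinning. Epiblast-led cells of the same replicate (281 cells) held 6.09 CPM of *Bmp4*, 1.27 CPM of *Bmp2* and 1.55 CPM of *Bmp8b*. Their epiblast markers *Pou5f1* and *Fgf5* stood at 323 and 179 CPM, against 43.4 and 11.49 CPM in the extraembryonic-ectoderm-led cells. The epiblast marker *Utf1* went the other way, at 525 against 593 CPM.

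Visceral-endoderm-led cells, with *Ttr* at 756 to 1207 CPM, held *Bmp2* at 72 and 103.3 CPM in 2 replicates of E6.5 and at 56.4, 154, 156 and 66 CPM in the 4 replicates of E7.5, while their *Bmp4* ran from 6.12 to 43.7 CPM. Mesoderm-led cells held *Bmp4* at 172 and 18.47 CPM at E6.5 and at 105.8 and 126.9 CPM at E7.5. Early-germ-led cells (15 cells of E6.5 replicate 2 and 17 cells of E7.5 replicate 2, *Dppa3* at 332 and 613 CPM) held *Bmp4* at 223 and 52.6 CPM and *Bmp2* at 1.07 and 1.77 CPM. *Bmp4* was thus the ligand read in the early-germ-led cells, in few cells of 2 replicates. They also held mesoderm markers, *Hand1* at 173 and 126.7 CPM and *Mesp1* at 132.8 and 113.4 CPM. *Tbx6* (13.9 and 16.3 CPM) and *Pdgfra* (8.05 CPM in both) were low in them. The part of mesoderm in their *Bmp4* was not tested.

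Tested over whole replicates, with 3 at E6.5, 4 at E7.5 and 3 in the positive gate at E8.5, 0 of 9 members passed from E6.5 to E7.5, where 0% of 17409 genes did, and 0 of 8 from E7.5 to E8.5, where 0% of 15744 did (edgeR). At an unadjusted p under 0.05 there was 1 member in the first step, *Bmp8b*, with 59 UMIs at E7.5 against 1734 at E6.5, and 4 in the second, *Bmp2*, *Bmp4*, *Smad5* and *Bmpr2*, all lower at E8.5. Over all genes 680 and 1900 had such a p. DESeq2 called 0 and 1 members among 35 and 732 genes, and limma called 0 members in both.

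The type I receptor gene *Bmpr1a* was read in every unit, from 15.8 CPM to 55.7 CPM in the positive gate of E11.5–E18.5 (median 34.1) and from 13 to 92.4 CPM (median 55.3) in the negative gate. It was lower in the positive gate by −0.67 ± 0.19 (adjusted p = 0.00295), with overlapping ranges. The call was lost without replicate 1 (−0.43, adjusted p = 0.232) and without replicate 2 (−0.73, adjusted p = 0.101). At E6.5 it stood at 62, 85 and 29.6 CPM. Its one call across time was a rise in germ-marker cells from PND0–PND2 (26.1 to 46.2 CPM, median 31.7) to PND3–PND5 (34.3 to 55.9 CPM, median 43.4), by 0.70 ± 0.19 (adjusted p = 0.00504), again with overlap, and by 0.60 without replicate 1 (adjusted p = 0.266).

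Between the postnatal classes the *Bmpr1a* ranges overlapped: 26.1 to 55.9 CPM (median 38.6) in germ-marker cells and 1.63 to 67.5 CPM (median 45.9) in somatic-marker cells, a difference of −0.47 ± 0.18 (adjusted p = 0.0202). With the replicate as a block it was −0.28 (adjusted p = 0.304), without replicate 1 −0.51 (adjusted p = 0.117) and without replicate 2 −0.21 (adjusted p = 0.676). The receptor gene was thus expressed on both sides of the germ and somatic divide at levels of the same order.

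*Bmpr1b*, the other type I receptor gene, rose in germ cells in the same step as *Bmp8b*. In the positive gate it stood at 1.13 and 0.493 CPM at E13.5, 3.82 and 1.03 CPM at E14.5, 8.98 and 6.21 CPM at E15.5, 11 and 12.3 CPM at E16.5, 8.14 and 8.52 CPM at E17.5, and 11.2 and 6.79 CPM at E18.5. In UMIs that was 74 over the 6 units of E11.5–E13.5 (0.0808 to 1.13 CPM, median 0.344) and 1126 over the 6 units of E14.5–E16.5 (1.03 to 12.3 CPM, median 7.59). The rise was 3.44 ± 0.82 on the log2 scale (adjusted p = 0.00277) and 3.43 in germ-marker cells alone (adjusted p = 0.00261). It was still called without replicate 1 (4.17, adjusted p = 0.0368) and not without replicate 2 (3.04, adjusted p = 0.153), a setting under which 0.433% of all genes passed.

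Germ-marker cells kept *Bmpr1b* after birth, at 8.66 and 9.11 CPM on PND0 and 1.70 to 9.11 CPM (median 5.58) over PND0–PND14. Somatic-marker cells held 0 to 3.83 CPM (median 0.0837), with 9 of 18 units at 0. The difference was 3.86 ± 0.43 (adjusted p = 6.35e-10), and with the block 4.17. In the fetal gonad the gates overlapped (0.0808 to 12.3 CPM, median 5.01, against 0 to 6.20 CPM, median 1.12) and did not pass (0.90 ± 0.75, adjusted p = 0.304). Cells with a *Bmpr1b* UMI were 11.3% and 4.65% at 50000 UMIs a cell, and 25.8% and 6.53% without thinning.

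*Bmpr2* encodes the type II receptor, and of the 6 members called between the gates it was the only one that passed under every alternative, left-out replicates included. It ran from 6.18 to 29.2 CPM (median 15.4) in the positive gate and from 31.7 to 98 CPM (median 66) in the negative gate, so that no positive unit reached any negative unit. The difference was −2.31 ± 0.17 on the log2 scale (adjusted p = 4.85e-12), −2.31 with the replicate as a block (adjusted p = 3.66e-09), −2.44 in the cells of each gate's own marker class, and −2.08 and −2.40 with either replicate number left out. Cells with a *Bmpr2* UMI were 33.7% and 63.1% at 50000 UMIs a cell, and 56.7% and 75.8% without thinning. The shallower negative cells thus held the higher share.

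After birth *Bmpr2* showed the same direction, with 12.7 to 28 CPM (median 17.52) in germ-marker cells and 23.8 to 91.1 CPM (median 47.4) in somatic-marker cells (−1.86 ± 0.13, adjusted p = 5.61e-15; with the block −1.73). Here a few units overlapped. Among somatic cells the means of *Bmpr2* in Sertoli-led and interstitial-led cells were 72.1 and 71.6 CPM in the fetal negative gate, and 51.7 and 43.8 CPM after birth. Within germ cells it moved less: the E17.5–E18.5 units (21.3 to 29.2 CPM) lay above those of E14.5–E16.5 (9.19 to 16.3 CPM), with 0.46 by edgeR (adjusted p = 0.373) and 0.91 by limma (adjusted p = 0.0244), and 0.24 by edgeR in germ-marker cells alone. The PND3–PND5 units (13.7 to 15.6 CPM) lay below those of PND0–PND2 (17.6 to 26.5 CPM), with −0.19 (adjusted p = 0.398).

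**Figure D4:**
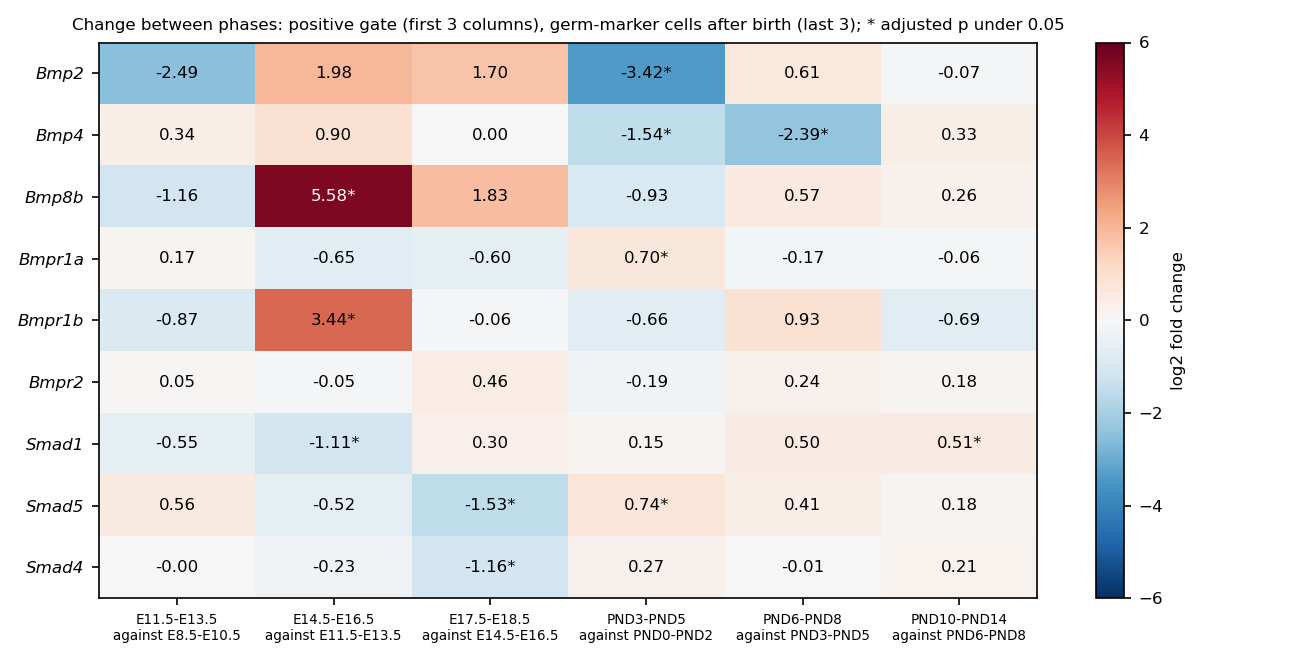
Log2 change of each gene (rows; colour scale) over 6 steps of development in germ cells (columns), the positive gate to E17.5–E18.5 and germ-marker cells after birth. A star marks an adjusted p under 0.05: *Bmp8b* (5.58) and *Bmpr1b* (3.44) rose from E11.5–E13.5 to E14.5–E16.5, and *Bmp2* (−3.42) and *Bmp4* (−1.54) fell from PND0–PND2 to PND3–PND5.

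*Smad1* and *Smad5* encode the Smads that BMP receptors phosphorylate. At E6.5 *Smad1* stood at 43.7, 84.7 and 75.9 CPM, and in the positive gate at E8.5 at 72.6, 22.7 and 32.4 CPM, of which the highest is replicate 1, the unit low in *Dppa3*. By leading marker list, *Smad1* stood at 95 and 126.8 CPM in mesoderm-led cells of E6.5 and at 100.2 and 91.8 CPM in those of E7.5, and at 18 and 21.2 CPM in early-germ-led cells. The epiblast-led cells of E6.5 replicate 1 held 32 CPM and its extraembryonic-ectoderm-led cells 11.8 CPM. *Smad1* was thus lower in the early-germ-led cells than in the mesoderm-led cells, described without a test.

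*Smad1* fell in the positive gate from 10.2 to 23.7 CPM (median 15.9) at E11.5–E13.5 to 4.68 to 11.8 CPM (median 8.76) at E14.5–E16.5, by −1.11 ± 0.41 (adjusted p = 0.0316). This call was lost by upper-quartile scaling (adjusted p = 0.0538), DESeq2 (adjusted p = 0.0519) and limma (adjusted p = 0.122), and without replicate 1 (−1.39, adjusted p = 0.0877) or replicate 2 (−0.84, adjusted p = 0.433). Against the negative gate (4.07 to 40.4 CPM, median 16.7) the positive gate (4.68 to 25.7 CPM, median 10.9) was lower by −0.68 ± 0.25 (adjusted p = 0.0200), which did not pass with the block (adjusted p = 0.0556) or without replicate 1 (−0.47, adjusted p = 0.448) or replicate 2 (−0.69, adjusted p = 0.208). In somatic cells *Smad1* stood higher in the class in which *Bmp4* did, described without a test: 24.7 ± 9.29 CPM (SD, n = 13) in fetal interstitial-led cells and 7.36 ± 6.58 CPM (SD, n = 9) in Sertoli-led cells, and after birth 24.2 ± 16.1 CPM (SD, n = 10) and 9.0 ± 4.54 CPM (SD, n = 11).

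After birth *Smad1* rose in germ-marker cells, with 12.4 to 16.9 CPM (median 14.6) at PND3–PND5, 17.1 to 25.4 CPM (median 20.4) at PND6–PND8 and 19.96 to 33.2 CPM (median 30.3) at PND10–PND14. The first of these steps had ranges apart and missed the threshold (0.50, adjusted p = 0.0794), and the second passed with overlapping ranges (0.51 ± 0.16, adjusted p = 0.0399). The second call was lost by upper-quartile scaling (adjusted p = 0.119), without the filter on low counts (adjusted p = 0.0650) by limma (adjusted p = 0.384), and without replicate 1 (adjusted p = 0.168) or replicate 2 (adjusted p = 0.653). Germ-marker and somatic-marker cells did not pass for *Smad1* (−0.04, adjusted p = 0.886).

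*Smad5* had the higher mean of this pair in the positive gate at each time-point from E11.5 to E17.5, in UMI counts of 3′ ends, which do not scale with transcript length, while at E18.5 *Smad1* did (means of 19.1 and 13.9 CPM). *Smad5* stood at 29.6 to 48.6 CPM (median 33.1) at E11.5–E13.5, above every unit of E8.5–E10.5 (18.4 to 28.9 CPM, median 25.6), a difference that missed the threshold (0.56 ± 0.27, adjusted p = 0.168). It then fell from 16.2–42.4 CPM (median 29.9) at E14.5–E16.5 to 6.21–21.5 CPM (median 13.6) at E17.5–E18.5, by −1.53 ± 0.34 (adjusted p = 0.00456), and by −1.75 in germ-marker cells alone (adjusted p = 0.00198). The 4 last units were 15.1 and 12.1 CPM at E17.5 and 6.21 and 21.5 CPM at E18.5. The call was lost without replicate 1 (−1.49, adjusted p = 0.0809) and without replicate 2 (−1.46, adjusted p = 0.626), and kept without replicate 2 of E18.5 alone (−1.69, adjusted p = 0.0107).

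*Smad5* stood at 13.7 and 10.8 CPM at PND0 and at 24.6 and 12.1 CPM at PND1. It rose from 10.8–46.5 CPM (median 19.1) at PND0–PND2 to 21.8–41.6 CPM (median 28.5) at PND3–PND5, by 0.74 ± 0.29 (adjusted p = 0.0459), a call lost under upper-quartile scaling and DESeq2, and without replicate 1 (1.02, adjusted p = 0.172) or replicate 2 (0.54, adjusted p = 0.273). Against the negative gate (lowest unit 14.6 CPM, median 47) the positive gate (6.21 to 48.6 CPM, median 30.6) was lower by −1.08 ± 0.20 (adjusted p = 2.68e-05), with the block −1.10 (adjusted p = 3.54e-04) and without replicate 1 −0.83 (adjusted p = 0.0645). The postnatal classes did not pass (−0.15, adjusted p = 0.543).

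*Smad4*, the partner of all receptor-activated Smads, moved with *Smad5* in the last fetal step. It fell from 20.7–45.6 CPM (median 33.5) at E14.5–E16.5 to 17–25.1 CPM (median 19.5) at E17.5–E18.5, by −1.16 ± 0.27 (adjusted p = 0.00615), and in germ-marker cells alone by −1.29 (adjusted p = 0.00320). By limma the value was −0.57 (adjusted p = 0.10), and the call was also lost without replicate 2 of E18.5 (−1.02, adjusted p = 0.0612), without replicate 1 (−1.19, adjusted p = 0.0949) and without replicate 2 (−1.01, adjusted p = 0.692). In this step 11.4% of all calls were higher by edgeR, 38.8% by DESeq2 and 83.8% by limma, so the direction of the calls over all genes depended on the scaling, while *Smad4* and *Smad5* were lower under all 3.

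Between the gates *Smad4* ran from 17 to 46.2 CPM (median 27.4) and from 20.8 to 91.1 CPM (median 37.5), a difference of −0.61 ± 0.23 (adjusted p = 0.0206). This was lost with the block (adjusted p = 0.0584), under upper-quartile scaling (adjusted p = 0.0720), by limma (adjusted p = 0.0561) and without replicate 1 of E17.5 (−0.40, adjusted p = 0.0943), a positive unit with 58.2 CPM of the Sertoli gene *Sox9*. It was also lost without replicate 1 (−0.20, adjusted p = 0.665) and without replicate 2 (−0.83, adjusted p = 0.133). After birth *Smad4* stood at 15.8 to 37.9 CPM (median 22.6) in germ-marker and 2.71 to 81.3 CPM (median 28) in somatic-marker cells (−0.79 ± 0.22, adjusted p = 0.00170). With the block that difference was −0.58 (adjusted p = 0.0619), and without replicate 1 −0.27 (adjusted p = 0.614).

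The other genes of the pathway were taken as 5 lists, of which 56 of 57 genes were in the table. Between the gates 11 of the 52 tested were higher and 21 lower in the positive gate, with a median of −0.47, in a comparison in which 60.3% of all genes passed. Of the 13 known target genes 7 were higher and 5 lower, with a median of 1.05. The higher ones included *Prdm1*, *Prdm14* and *Tfap2c*, also markers of early germ cells here, so this count and median are partly set by cell type. The *Id* genes, the best known BMP targets, were among the lower: *Id1* at a mean of 22 against 256 CPM (−3.89 ± 0.27, adjusted p = 7.65e-13), *Id2* at 17.8 against 264 CPM (−4.34 ± 0.31, adjusted p = 2.01e-12) and *Id3* at 144.9 against 404 CPM (−2.83 ± 0.49). For *Id1* and *Id2* no unit of one gate reached the other. Among the 12 extracellular inhibitors tested, 7 were lower and 2 higher, with *Sostdc1* at medians of 0.358 and 96.8 CPM (−6.19 ± 0.70) and *Twsg1* at 14.47 against 55.2 CPM (−2.19), which encode a secreted antagonist and a secreted modulator.

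Higher in the positive gate were the type II receptor gene *Acvr2b* at 36 against 14 CPM (1.33) and the target gene *Msx2* at 27.9 against 3.59 CPM (2.71). Of the receptors and co-receptors tested 1 of 7 was higher and 3 were lower. Among the further Smads and regulators 1 of 11 was higher and 5 lower, with the pseudoreceptor gene *Bambi* at medians of 41.6 and 129.1 CPM (−1.87). Of the 9 further ligands tested, 0 were higher and 1 lower. *Prdm1*, a listed target and also higher in the gate, is a reporter gene of the sort and so is no finding. The direction of *Prdm14* and *Tfap2c*, markers of early germ cells, is no finding either.

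Within germ cells *Id1* and *Id2* fell in the step in which no member passed. From E8.5–E10.5 to E11.5–E13.5, 6 of 13 targets fell and 0 rose, with *Id1* from 151 to 27.8 CPM (−2.31, adjusted p = 0.00693) and *Id2* from 177 to 31.3 CPM (−2.36, adjusted p = 0.00317), while *Id3* did not pass (−0.30, adjusted p = 0.796). In all, 3 of 50 pathway genes were higher and 10 lower in that step, against 11.8% of all genes called. Without the E8.5 units 4 of 13 targets fell, *Id2* by −1.62 (adjusted p = 0.0304), while *Id1* missed the threshold (−1.35, adjusted p = 0.0919), and both missed it without replicate 1 or replicate 2 (adjusted p = 0.129 to 0.207). From E11.5–E13.5 to E14.5–E16.5, 14 were higher and 13 lower of 50, against 43.5% of all genes: *Id2* went from 31.3 to 7.03 CPM (−2.39) and *Id3* from 327 to 44.5 CPM (−3.01), the inhibitor gene *Chrdl1* from 0.127 to 7.32 CPM (5.42), and the Activin and TGF-β branch gene *Smad2* from 82.7 to 53.1 CPM (−0.90). From E14.5–E16.5 to E17.5–E18.5 only *Cdx2* rose (0.434 to 7.40 CPM, 3.71) and only *Bmp7* fell (31.4 to 21.2 CPM, −1.0) among the 50, against 13.4% of all genes, and the *Bmp7* call was lost by upper-quartile scaling, DESeq2 and limma and without any 1 of the 3 replicate numbers.

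After birth 22 of 52 pathway genes were higher and 18 lower in germ-marker cells, against 64.5% of all genes called. Of the 13 known target genes 9 were higher and 3 lower, with a median of 2.29 beside 0.53 over all genes. Here too the higher ones included the early germ cell markers *Prdm1*, *Prdm14* and *Tfap2c*, so this count and median are partly set by cell type. The 3 lower were the *Id* genes, with no overlap: *Id1* at 19.3 against 183 CPM (−3.63), *Id2* at 13.2 against 256 CPM (−4.94) and *Id3* at 23.9 against 381 CPM (−4.44). *Bmp7*, a further ligand, was higher at 36.8 against 15.9 CPM (0.87), and *Acvr2b* at 31.7 against 5.40 CPM (2.10). From PND0–PND2 to PND3–PND5, 1 of 50 rose and 13 fell, against 39% of all genes, among them *Smad9*, the third BMP-activated Smad, from 13.3 to 4.87 CPM (−1.09). In the later steps 1 rose and 3 fell each time, against 4.42% and 13.8% of all genes, with *Chrdl1* rising from 5.87 to 16 CPM (1.40) at PND6–PND8 and the inhibitory Smad genes *Smad6* (−0.90) and *Smad7* (−1.60) falling at PND10–PND14. The *Smad6* call was lost without the filter on low counts (adjusted p = 0.0583), the *Chrdl1* and *Smad6* calls were lost without replicate 1 and without replicate 2, and those of *Smad7* and *Smad9* in 1 of these 2 refits.

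Gonads of E13.5 to E16.5 were cut into proximal, central and distal parts relative to the mesonephros, and the distal part (D) was compared with the proximal part (P). In the negative gate (8 and 8 units) 0 of the 7 members tested passed, where 0% of 13059 genes did by edgeR, with 1 member at an unadjusted p under 0.05. That member was *Bmp4*, at 0.853 to 49.5 CPM (median 24.7) in D and 0.312 to 17.1 CPM (median 10.2) in P, a difference of 1.73 ± 0.67 (adjusted p = 0.914, and 0.634 with the replicate as a block). DESeq2 called 8 genes there. In the positive gate 0 of 9 members passed, where 0% of 17340 genes did by edgeR, with 0 at an unadjusted p under 0.05 and 0 called by DESeq2 or limma. No difference along the gonad was thus detectable for the members with these units.

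Likeness was measured as Pearson's correlation of log2(CPM + 1) over the 76 units, which share time-points and libraries, among 12704 genes. The genes most like *Bmp2* were *Grb10* (0.81), *Stk26* (0.81) and *Krt8* (0.80), those most like *Bmp4* were *Cachd1* (0.73), *Fign* (0.72) and *Rspo3* (0.72), and those most like *Bmp8b* were *Ly6g6c* (0.79), *Trim54* (0.78) and *Rasip1* (0.78). For the receptors, they were *Zfp36l2* (0.74), *Foxm1* (0.74) and *Mcl1* (0.72) for *Bmpr1a*, *Scd3* (0.83), *Atxn7l2* (0.83) and *Ttn* (0.82) for *Bmpr1b*, and *Add1*, *BC034090* and *Gpx7* (0.88 each) for *Bmpr2*. For the Smads, they were *E2f4* (0.77), *Unc5b* (0.76) and *Ythdf3* (0.76) for *Smad1*, *Csnk1a1* (0.71), *Slc25a51* (0.70) and *Fopnl* (0.70) for *Smad5*, and *Cop1* (0.78), *Pum2* (0.78) and *Fam120a* (0.74) for *Smad4*. Between members the values were lower: 0.63 for *Bmp8b* and *Bmpr1b*, 0.60 for *Bmpr1a* and *Smad4*, 0.58 for *Bmp2* and *Bmp4*, 0.54 for *Bmpr1a* and *Smad1*, and −0.44 and −0.42 for *Bmp8b* with *Smad5* and *Smad4*.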

How the data were processed

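The authors made the single-cell RNA-seq libraries with a version of STRT-seq, which reads 3′ ends and carries UMIs. Per the study's methods, reads were handled with UMI-tools and seqtk, aligned to mm10 with STAR, and uniquely aligned reads were counted per gene with featureCounts, and CASAVA 1.8 is named in the submitters' processing notes. The deposited values are raw UMI counts per gene and cell (unit counts, not normalized). The time-point, genotype, gate and replicate of a cell came from the authors' deposited table of cells, since all libraries carry the same label. Of 13032 cells, 11896 were wild type and 9248 of these were of E6.5 to PND14. Cells with more than 2000 genes and 10000 to 1000000 UMIs were kept (9034), and the 3784 columns of cells not used belonged to other genotypes or stages.

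UMIs were summed per time-point, replicate and gate (at least 10 cells) and tested with edgeR 4.0.16 (quasi-likelihood, TMM factors, filterByExpr, R 4.3.3), with Benjamini-Hochberg adjustment over all genes tested. Time-point was a covariate for gate, class and position, and the phases were fitted as means that share 1 spread. DESeq2 1.42.0, limma 3.58.1 (on log2 of the mean CPM of the cells plus 1), upper-quartile factors, no filter on low counts, other cell filters, left-out replicates and the replicate block were alternatives. The added fits without units or cells in doubt were chosen after seeing the data. The study's methods describe the replicates as biological, and p-values measure the spread between these summed units. In the fits over phases, which hold no term for the time-point, that spread also includes change between the days of a phase.

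Depth was 20701229 to 35260188 UMIs a unit in the positive gate, 2457656 to 14846785 in the negative gate and 24833369 to 77803830 after birth, so low genes were measured less precisely in the negative gate. Units with the same number in both gates or classes come from the same embryos or animals, which pairs them. The correlation of their deviations over genes was −0.07 to 0.21 between the gates (over 0.1 at 4 of 8 time-points), 0.05 to 0.30 between the postnatal classes (5 of 6) and over 0.1 at all 4 time-points for the gonad parts.

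A cell was called germ-marker or somatic-marker where its mean log2(CPM + 1) over the germ list and over the highest somatic list differed by more than 1, and 2.05% of postnatal cells lay within 0.5 of either border. The 9 members were always named. Other pathway genes were named only if called with a mean of 5 CPM or more in one group, chosen among these for their role, and 3 genes were named per member for likeness. Members and lists were chosen with earlier results of these data known. Only the fit of the gate comparison was tried on simulated counts, which held no pairing or time effect, so the other fits were not covered. Python 3.11.15 with numpy 2.4.6, pandas 2.3.3, scipy 1.17.1 and matplotlib 3.10.9 was used.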

Additional observations from a re-analysis of the deposited data

Results flagged for a closer look

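By Dixon's criterion, tested gene by gene in every group of 4 to 10 units, 19 groups held a unit far from the others. Chance alone flags about 1 in 20 of the groups tested. A part of these 19 is thus expected by chance, and which ones cannot be told from the values. No explanation was tested for any of them.

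In the early embryo, with the cells of a replicate summed whichever way they were picked, *Bmp2* stood at 153 CPM in E7.5 replicate 3, against 31 CPM in the nearest replicate. In the positive gate *Bmp4* stood at 26.4 CPM in E13.5 replicate 1 (nearest 10.4), *Bmpr2* at 21.7 CPM in E8.5 replicate 3 (nearest 12.3) and *Smad1* at 72.6 CPM in E8.5 replicate 1 (nearest 32.4). At E18.5 replicate 2, *Bmp2* was high at 19.4 CPM (nearest 11.9) and *Bmpr1a* low at 15.8 CPM (nearest 33.3). In germ-marker cells *Bmp2* was high at 2.48 CPM in PND8 replicate 1 (nearest 0.804) and *Bmpr1a* low at 32.6 CPM in PND12 replicate 1 (nearest 37.1).

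In the negative gate *Bmp4* stood at 27.8 CPM in E15.5 replicate 2 (nearest 16.9), *Smad1* at 24.7 CPM in E14.5 replicate 2 (nearest 17), and *Bmp8b* at 0.411 CPM in E16.5 replicate 2 (nearest 0.112), a value of 3 UMIs.

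Among the gonad parts, units of the positive gate flagged this way were the distal E16.5 replicate 2 for *Bmp2* (15.3 CPM, nearest 6.57), the distal E15.5 replicate 1 for *Bmpr2* (26.2 CPM, nearest 14.3) and the proximal E14.5 replicate 2 for *Bmpr1a* (62.6 CPM, nearest 36.2). In the negative gate they were, in proximal parts, *Bmp2* at 23.6 CPM in E14.5 replicate 1 (nearest 9.33), *Bmp8b* at 7.01 CPM in E13.5 replicate 2 (nearest 0.811), *Bmpr1b* at 10.1 CPM in E16.5 replicate 1 (nearest 1.49) and *Smad4* at 74 CPM in E14.5 replicate 2 (nearest 38.3), and in the distal part *Bmpr1b* at 5.62 CPM in E16.5 replicate 1 (nearest 0.653). *Bmpr1b* was thus high in both parts of the same replicate.

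The difference between the gates in *Bmp8b* changed from E11.5–E13.5 to E14.5–E16.5 by 8.90 on the log2 scale, tested as an interaction term in edgeR, and by 1.65 without the negative units of E12.5 and E13.5 replicate 2.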

How the results depend on the processing

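Of the 24 member results that passed, 14 kept their call under every alternative other than leaving out a replicate (7 to 10 alternatives each, beside the fit without E18.5 replicate 2, which changed only the *Smad4* call at E17.5–E18.5), among them *Bmpr2* in both comparisons of germ with somatic cells, *Bmp8b* and *Bmpr1b* at E14.5–E16.5, and *Bmp2* and *Bmp4* at PND3–PND5. Of 53 refits that left out a replicate number, 19 kept the call and 52 the direction, the exception being *Bmp2* in germ-marker against somatic-marker cells, from −1.91 to 0.09. Such a refit drops the units of that number at every time-point. For the change of the gate difference to E14.5–E16.5, 2662 of 21368 genes passed with 32 units. With 16 units, 158 of 21660 passed without replicate 1 and 2 of 21647 without replicate 2. For a lost call alone, fewer units and dependence on a replicate cannot be told apart. *Bmp4* between the gates, which did not pass, changed sign to 0.17 under upper-quartile scaling and in cells of the gate's own marker class, 0.12 by DESeq2, 0.44 by limma, 0.29 with the replicate as a block, and ran from −0.19 to 0.85 without 1 replicate number. Of the 25 pathway gene results named, 22 kept their call under every alternative other than leaving out a replicate, 38 of 58 refits without a replicate number kept it, and all 278 refits kept the direction. The count of members that passed with the block was 5 between the gates, 3 between the postnatal classes and 0 for the gonad parts, and the calls it changed are given beside their results. Other counts that moved were, by DESeq2, 1 member from E7.5 to E8.5, 1 in the positive gate from E8.5–E10.5 to E11.5–E13.5 and 3 at PND6–PND8, and by limma 3 between the postnatal classes, 4 at E17.5–E18.5, 2 at PND6–PND8 and 0 at PND10–PND14. Without the positive unit of E18.5 replicate 2, 1 member passed at E17.5–E18.5 (*Smad5*), and 1137 of all genes. At PND10–PND14 upper-quartile scaling and no filter on low counts also gave 0. Without 1 replicate number the counts were 1 to 3 between the gates, 3 to 4 between the postnatal classes, 0 to 3 at E14.5–E16.5, 0 to 2 at E17.5–E18.5, 0 to 3 at PND3–PND5, and 0 at PND6–PND8 and PND10–PND14. At PND3–PND5 without replicate 1, 0 of 22295 genes passed by edgeR. Over all genes, the number that passed at E17.5–E18.5 was 2879, against 1347 with upper-quartile scaling and 7428 by limma. For the E7.5 to E8.5 step it was 0 against 732 by DESeq2, for E11.5–E13.5 in the positive gate 2551 against 3891 by DESeq2, and for PND6–PND8 942 against 1950 by DESeq2. The share of calls that were higher moved from 49.2% to 34.5% (upper-quartile), 38.1% (DESeq2) and 19.8% (limma) at PND3–PND5, from 66.1% to 48.9% (upper-quartile) at PND10–PND14, and from 60.8% to 73.8% (limma) between the postnatal classes. The fit with at least 20 cells a unit could not be made for the gonad parts of the negative gate. The cause of these changes was not tested. Depth limits the negative gate and the postnatal somatic-marker cells most, where a count of 0 allows 0.202 to 1.22 CPM and 0.210 to 4.88 CPM.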

Other observations

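The gate labelled BV at E11.5 belongs to none of the comparisons. It held 32 cells of replicate 1, with *Bmp2* at 0.760 CPM, *Bmp4* at 4.87 CPM, *Bmp8b* at 0, *Bmpr1a* at 58.2 CPM, *Bmpr1b* at 0.633 CPM, *Bmpr2* at 17.7 CPM, *Smad1* at 13.2 CPM, *Smad5* at 49.8 CPM and *Smad4* at 37.7 CPM.

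The central part of the gonad (8 units a gate, E13.5 to E16.5) entered the comparison of the gates but was not compared by itself. There *Bmp4* ran from 9.83 to 32.9 CPM (median 13.7) in the positive gate and from 1.74 to 67.6 CPM (median 5.31) in the negative gate. *Bmp2* ran from 0.495 to 12.6 CPM (median 1.56) and from 0.803 to 63 CPM (median 8.74). *Bmp8b* ran from 0 to 4.78 CPM (median 0.480) and *Bmpr1b* from 0 to 11 CPM (median 5.95) in the positive gate.

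At PND14 part of the cells, which also entered the postnatal classes, were gated by DNA content. The 4N unit of replicate 1 held *Bmp8b* at 3.26 CPM, *Bmpr1b* at 0.797 CPM, *Smad1* at 13.4 CPM and *Smad5* at 68.4 CPM, the 2N unit of replicate 1 held 0.522, 5.72, 24.2 and 35.7 CPM of the same genes, and the 2N unit of replicate 2 held 1.33, 0.322, 24.5 and 59.2 CPM. With 1 unit of 4N cells no test was made.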
